A study of Mus musculus with 48 samples.

Results

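The 34 genes described here encode the enzymes that make serine, carry one-carbon units on folate, cleave glycine, and build, interconvert and salvage purine and pyrimidine nucleotides. They were chosen by name, as enzymes of these pathways, with earlier results of these data known, and all 34 were found, 32 by symbol and 2 (Ctps, Hprt) by a RefSeq synonym, among the 20622 genes with a cytoplasmic RNA row and the 16269 genes with a transcript counted for ribosome-protected fragments (RPFs). The study measured mouse liver by ribosome profiling, in which the stretches of mRNA covered by ribosomes are sequenced, beside RNA from the same cytoplasmic lysate. It asked how translation differs between livers with an activating mutation of the WNT pathway effector β-catenin, a MYC transgene, or both. There were 24 mice in 4 genotypes at 2 times, with 3 mice per group and an RPF and an RNA library from each mouse, 48 libraries in all. WT mice were wild-type. B mice carried 1 Ctnnb1ex3 allele and 1 wild-type allele (labelled Ctnnb1ex3/+), which yields a stabilized β-catenin after Cre recombination. M mice carried R26-LSL-MYC, a MYC transgene behind a stop cassette at the Rosa26 locus that Cre removes. BM mice carried both. All 24 mice, WT included, were males of 2 to 4 months on a mixed C57BL/6 background that received AAV8.TBG.PI.Cre.rBG, a viral vector in which the hepatocyte-specific TBG promoter drives Cre, and the livers were taken 4 or 10 days later. The virus dose, 2e+11 genome copies, is labelled both per mouse and per ml. The alleles were therefore recombined in hepatocytes, and the samples were whole liver, so that fewer cells of a type and less RNA per cell cannot be told apart in any value below.

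Serine is made from a glycolytic intermediate in 3 steps by Phgdh, Psat1 and Psph. Serine hydroxymethyltransferases then move a carbon from serine to folate, and the folate enzymes pass it on in mitochondria and cytosol as formyl groups for purines or as methyl groups. The purine ring is assembled on a ribose phosphate by a chain of enzymes from Prps1, Prps2 and Ppat to Atic, the pyrimidine ring by Cad, Dhodh and Umps, and salvage enzymes such as Hprt and Aprt return free bases to nucleotides. Liver is a main organ of glycine breakdown and of purine synthesis, glycine cleavage is a periportal function of the liver lobule, and several of the nucleotide enzymes are textbook targets of MYC, which binds the E-box CACGTG.

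The promoter sequences are shown because M and BM mice carry a MYC transgene and CACGTG is the sequence MYC binds. Promoter windows of 300 bases, from 250 before to 50 after the transcription start (RefSeq, GRCm38.p6), were given for 31 of the 34 genes. CACGTG, which reads the same on both strands, occurred in a window of 4 of the 31 (12.9%), against 2187 of 27025 genes (8.09%). TGATGCAA, an amino acid response element bound by ATF4, was searched on both strands and occurred in 0 of 31 and in 279 of 27025 genes (1.03%). A match describes letters only, and its absence describes this window only. The matches, with the motif in capitals and 30 bases on either side, were in Atic (purine synthesis; chr1:71557119-71557184, plus strand, motif 7 bases before the start), Paics (purine synthesis; chr5:76951069-76951134, plus strand, 203 bases before), Impdh2 (guanine nucleotide synthesis; chr9:108560296-108560361, plus strand, 110 bases before) and Nme1 (nucleoside diphosphate kinase; 2 starts, chr11:93968255-93968320 and chr11:93968019-93968084, minus strand, 18 and 29 bases before).
Atic: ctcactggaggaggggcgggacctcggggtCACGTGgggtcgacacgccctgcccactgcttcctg
Paics: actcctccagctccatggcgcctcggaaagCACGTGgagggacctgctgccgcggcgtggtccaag
Impdh2: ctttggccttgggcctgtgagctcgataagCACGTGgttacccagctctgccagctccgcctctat
Nme1, start 1: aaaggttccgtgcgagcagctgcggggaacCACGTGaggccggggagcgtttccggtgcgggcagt
Nme1, start 2: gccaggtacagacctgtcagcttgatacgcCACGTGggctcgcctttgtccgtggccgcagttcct

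RPF libraries held 9742197 to 14380713 reads in coding sequences and RNA libraries 3254141 to 6540116 reads. Levels are given as CPM, counts normalized to library size after scaling by trimmed mean of M values, and translation efficiency (TE) is the ratio of RPF to RNA. Glul, a β-catenin target in liver, was at 1630.1 to 5187 RPF CPM in the B and BM mice and at 511 to 862 in WT mice, and Myc was at 43.6 to 164 RPF CPM in M and BM mice and at 2.43 to 18.3 in WT mice. In B mice Myc was at 11.2 to 35.3 RPF CPM, below every M and BM mouse and partly above the WT mice. Myc RNA did not separate the genotypes, at 22.2 to 43.8 CPM in WT and 19.6 to 53.1 CPM in M and BM mice, and reads of the transgene and of the mouse gene cannot be told apart here. BM day 10 mouse 1 stood apart from the other BM day 10 mice, with Axin2, a β-catenin target, at 26.8 RPF CPM against 10.5 and 6.20. In WT day 10 mouse 2 and B day 10 mouse 3 the footprints of Phgdh, Psat1, Mthfd1l and Mthfd2 were the highest of their groups. Several results below are therefore also given without 1 of these 3 mice. The summed RPF level of 8 hepatocyte markers was 94357 to 106790.0 CPM in WT and 52465 to 61068 CPM in BM mice at day 4, and 8 of the 8 were called lower there, as were 9 of 10 Kupffer cell and macrophage markers (sums 719 to 816 and 393 to 438 CPM), 7 of 8 endothelial, 5 of 8 stellate, 3 of 4 cholangiocyte and 4 of 5 blood cell markers. In M mice at day 4 the hepatocyte sum was 65319 to 81796 CPM and 7 of the 8 were called lower, as were 1 of 10 Kupffer cell and macrophage, 3 of 8 endothelial, 3 of 8 stellate, 2 of 4 cholangiocyte and 3 of 4 blood cell markers. In B mice at day 4 the hepatocyte sum was 82988 to 96515 CPM and 2 of the 8 were called lower. So were 3 of 10 Kupffer cell and macrophage, 1 of 8 stellate, 1 of 4 cholangiocyte and 2 of 5 blood cell markers, and 0 of 8 endothelial markers. Of all genes 24.7% were called lower in BM, 14.7% in M and 6.26% in B mice at day 4. At day 10 the hepatocyte sum was 95089 to 117191 CPM in WT, 59615 to 61657 in B, 61161 to 63368 in M and 50306 to 68589 CPM in BM mice, with 5, 4 and 5 of the 8 called lower and 0, 0 and 2 higher. Kupffer cell and macrophage markers were called higher for 4 of 10 in BM mice (sums 579 to 798 CPM in WT and 769 to 875 in BM) and for none in B and M mice. Blood cell markers were called higher for 3 of 8 in B mice (sums 372 to 434 CPM in WT and 538 to 824 in B) and for 2 of 8 in BM mice, where 1 was lower, and 1 of 5 was lower in M mice. Endothelial markers were lower for 4, 6 and 3 of 8 and stellate markers for 4, 3 and 5 of 8 in B, M and BM mice, with 1 of each higher in BM mice. Of the cholangiocyte markers 1 of 4 was higher in M and 1 of 4 lower in BM mice. Of all genes, 13.1%, 10.6% and 24.5% were called higher at day 10 in B, M and BM mice. Those called lower were 12.1%, 8.80% and 22.3%, so several of these marker counts are near the background. Against M mice, BM mice at day 4 had 10 of 10 Kupffer cell and macrophage, 6 of 8 hepatocyte, 3 of 8 endothelial and 2 of 8 stellate markers called lower (all genes 19.3%). No marker was called higher there. At day 10, 5 of 10 Kupffer cell and macrophage, 3 of 8 endothelial, 3 of 7 blood cell, 2 of 8 hepatocyte and 1 of 8 stellate markers were higher (16.0%). Lower were 4 of 8 hepatocyte, 1 of 8 stellate and 1 of 4 cholangiocyte markers (16.7%). The part of these shifts in the results below was not tested.

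In WT liver at day 4 the genes differed widely in footprints per kilobase of coding sequence. Aldh1l1, which oxidizes formyl-tetrahydrofolate and so releases the folate, was the most occupied at 809.5 ± 78.7 CPM per kb (SD, n = 3), followed by Nme1 at 285 ± 31.3, Shmt1 at 253 ± 4.39 and Gcsh at 239.5 ± 7.18. The ranges of Nme1 (266 to 321), Shmt1 (249.8 to 258) and Gcsh (233 to 247) followed each other with small gaps and no overlap. At the other end stood Psat1 at 1.53 ± 0.570, Phgdh at 0.690 ± 0.266, Mthfd1l at 0.343 ± 0.149 and Aldh1l2 at 0.244 ± 0.104 CPM per kb, and the ranges of Mthfd1l and Aldh1l2 overlapped. On the RNA side, in the deposited TPM, a length-normalized share of transcripts, Aldh1l1 again had the highest mean at 252 ± 20.9. Its range (238 to 276) overlapped that of Nme2 (227 to 241). Psat1 was at 0.257 ± 0.0666 and Aldh1l2 at 0.0300 ± 0.0265. Phgdh, Psat1, Mthfd1l and Mthfd2 were measured from few reads, with 6 to 209 RPF counts per library for Phgdh, 8 to 326 for Psat1, 4 to 135 for Mthfd1l and 7 to 147 for Mthfd2. Nme2 was at 236 ± 7.82 TPM but at 5.96 ± 1.03 RPF CPM per kb, and 337 of 337 windows of 30 bases in its counted coding sequence also lie in the read-through gene Nme1nme2. The same holds for 151 of 232 windows of Nme1 (65.1%), so the values of both genes are uncertain. Prps1 (42.3% of windows), Paics (28.2%) and Uck2 (0.8%) were the other genes that share windows with another protein-coding gene. Ppat (GRCm39, chr5:77061096-77099436, minus strand) and Paics (chr5:77099139-77116370, plus strand) overlap at their first exons.

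More of these genes were called higher in M and BM than in WT livers at day 4 than of all genes, and fewer were called lower. A gene was called at an adjusted p under 0.1, from the quasi-likelihood test of edgeR adjusted by the Benjamini-Hochberg method over all genes tested. At day 4, 24 of 33 genes tested were called higher in M than in WT livers, against 18.5% of all genes tested, while 14.7% of all genes and no gene of the set were called lower. In BM livers 22 of 34 were called higher (all genes 26.2%) and 4 lower (24.7%). In B livers 2 of 33 were called higher (6.21%) and 2 lower (6.26%), close to the background. The median log2 change over the tested members was 0.57 in M, 0.73 in BM and 0.03 in B livers, against 0.01, 0.00 and -0.01 over all genes. BM compared directly with M livers had 13 of 33 higher (18.8%) and 6 lower (19.3%). These comparisons share the WT or M mice, so their results are not independent of each other.

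At day 10, 16 of 33 were called higher in M livers (10.6%) and none lower (8.80%). In BM livers 15 were called higher (24.5%) and 4 lower (22.3%), and in B livers 4 were higher (13.1%) and 4 lower (12.1%). BM against M had 7 of 33 higher (16.0%) and 7 lower (16.7%). The member medians were 0.56 in M, 0.44 in BM and 0.09 in B livers, where those of all genes were 0.00, 0.03 and 0.01. The 3 mice of one group did not overlap the 3 of the other for 23 of the 24 members called in M and 26 of 26 in BM livers at day 4, and for 16 of 16 and 19 of 19 at day 10. These members were picked by the calls from the same mice, so the separation adds no support. The share over all genes was not counted. With BM day 10 mouse 1 left out, 26 members were called in BM livers at day 10, 19 higher (33.4% of all genes) and 7 lower (32.9%). With WT day 10 mouse 2 left out 14 were higher (17.9%) and 1 lower (17.1%). Scaled by library totals alone, which moved the median of all genes by 0.26 in B, 0.25 in M and 0.38 in BM livers at day 10, 14 were higher (33.9% of all genes) and 1 lower (5.11%) in B livers and 23 higher (43.3%) and 1 lower (10.9%) in BM livers.

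**Figure D1:**
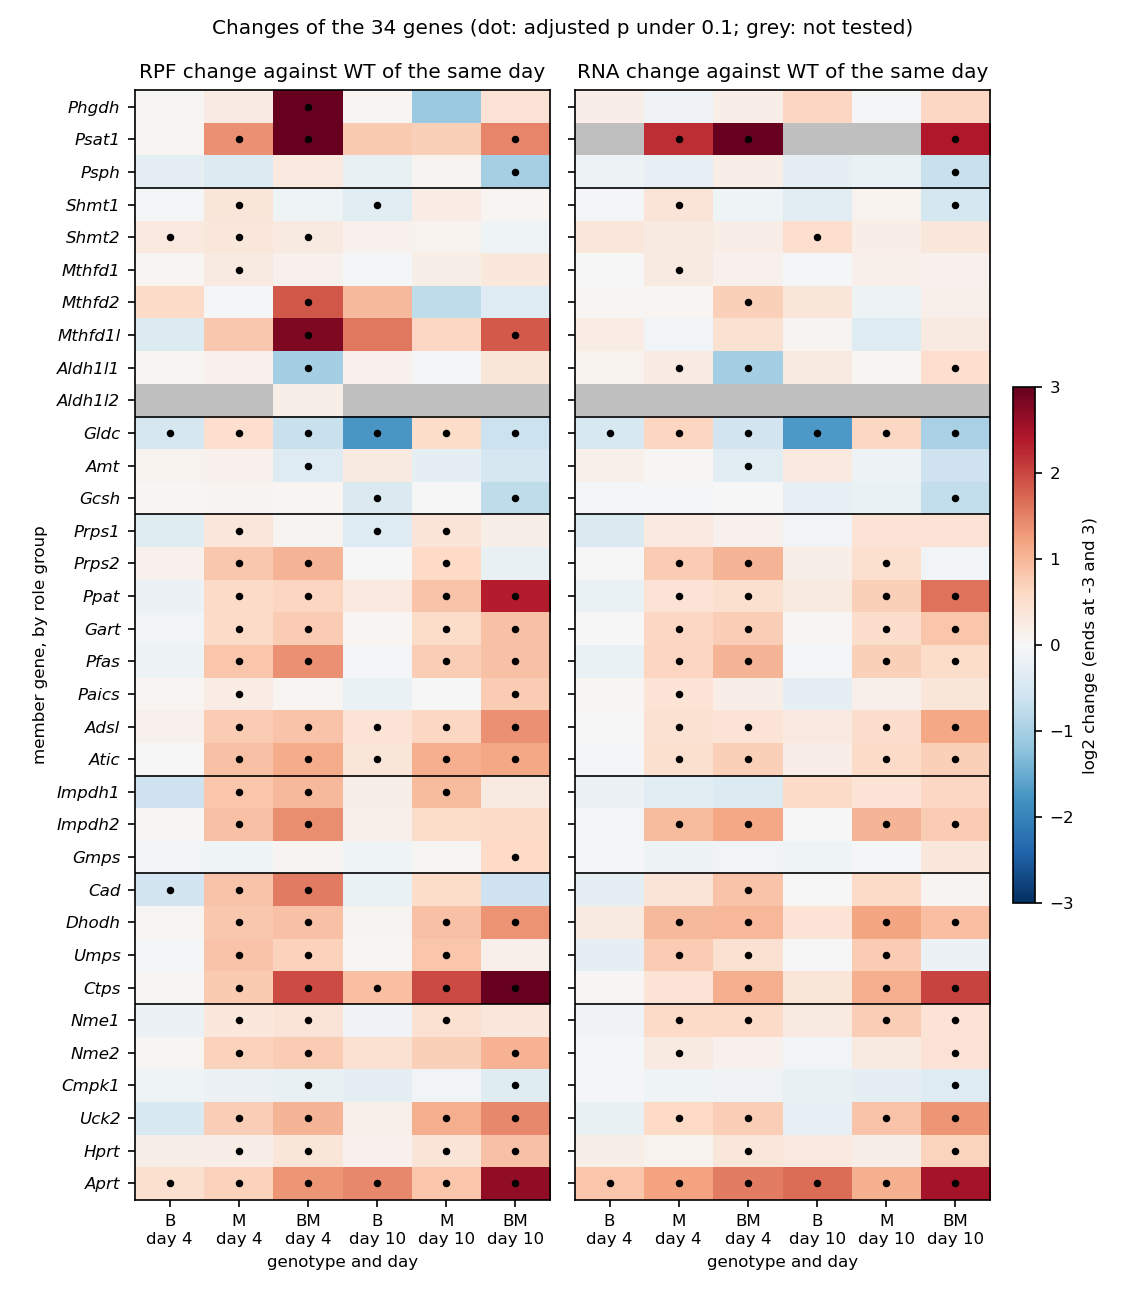
The log2 change of each of the 34 genes against WT in RPFs (left) and RNA (right), in B, M and BM livers at days 4 and 10, ordered by role in the pathway. Colours end at -3 and 3, a dot marks an adjusted p under 0.1 and grey marks genes not tested. In RPFs the pyrimidine and purine ring genes are mostly positive in M livers, with 4 of 4 and 8 of 8 called higher at day 4 (all genes 18.5%). Gldc is negative in B and BM livers and positive in M livers.

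Of the 3 serine synthesis enzymes, Phgdh and Psat1 rose in BM livers at day 4 and Psph did not pass the test there (0.29 ± 0.18). Psat1, the aminotransferase of the second step (GRCm39, chr19:15882039-15924701, minus strand), was at 2.02, 1.70 and 0.905 RPF CPM in WT, 1.93, 1.68 and 1.36 in B, 5.18, 3.07 and 3.82 in M, and 19.9, 19.4 and 16.3 in BM livers at day 4. WT and B mice overlapped, every M mouse was above them, and every BM mouse was above every M mouse. The log2 change against WT was 1.38 ± 0.31 (SE) in M (edgeR adjusted p = 0.00984) and 3.58 ± 0.21 in BM livers (adjusted p = 4.15e-07), and 2.20 ± 0.17 in BM against M (adjusted p = 3.30e-05). At day 10 the level was 1.58, 4.81 and 1.56 CPM in WT, 1.78, 2.06 and 9.86 in B, 4.17, 3.74 and 5.23 in M, and 6.62, 5.13 and 10.6 in BM livers. WT mouse 2 lay within the M range and B mouse 3 within the BM range. BM livers were still higher than WT at day 10, by 1.47 ± 0.48 (adjusted p = 0.0438). That call was lost without WT mouse 1, WT mouse 3 or BM mouse 3, with values of 1.18, 1.21 and 1.13. Without WT mouse 2 the change was 2.20 ± 0.41 (adjusted p = 0.0147). The M change at day 10 was 0.72 ± 0.41 (adjusted p = 0.287) and became 1.48 (adjusted p = 0.0282) without WT mouse 2.

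Phgdh, the first and committed step of serine synthesis (chr3:98220484-98255047, minus strand), was at 1.47, 0.972 and 0.678 RPF CPM in WT, 1.10, 0.746 and 1.45 in B, 1.32, 1.38 and 1.00 in M, and 9.42, 13.7 and 5.43 in BM livers at day 4. The first 3 groups overlapped and the BM mice stood clear of all of them. BM exceeded WT by 3.17 ± 0.40 on the log2 scale (edgeR adjusted p = 9.25e-05) and M by 2.92 ± 0.37 (adjusted p = 4.28e-04). At day 10 the level was 0.875, 4.09 and 1.20 in WT, 1.78, 0.588 and 4.00 in B, 0.806, 0.733 and 1.31 in M, and 3.13, 2.56 and 2.73 CPM in BM livers. BM mice lay between WT mouse 2 and the other WT mice, and the change against WT was 0.44 ± 0.52 (adjusted p = 0.529). Without WT mouse 2 it was 1.41 ± 0.34 (adjusted p = 0.0317). Psph, the phosphatase of the last step, ranged from 1.92 to 8.56 CPM over all mice. It was higher in BM than in M livers at day 4 (0.71 ± 0.21, adjusted p = 0.0323; 0.57 and not called without BM mouse 1) and lower in BM than in WT livers at day 10 (-0.99 ± 0.36, adjusted p = 0.0646), where the call was lost without WT mouse 2 (-0.55, adjusted p = 0.222). It was also lost without WT mouse 3 (-1.12), and without BM mice 2 and 3 in turn (-1.08 and -1.02).

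**Figure D2:**
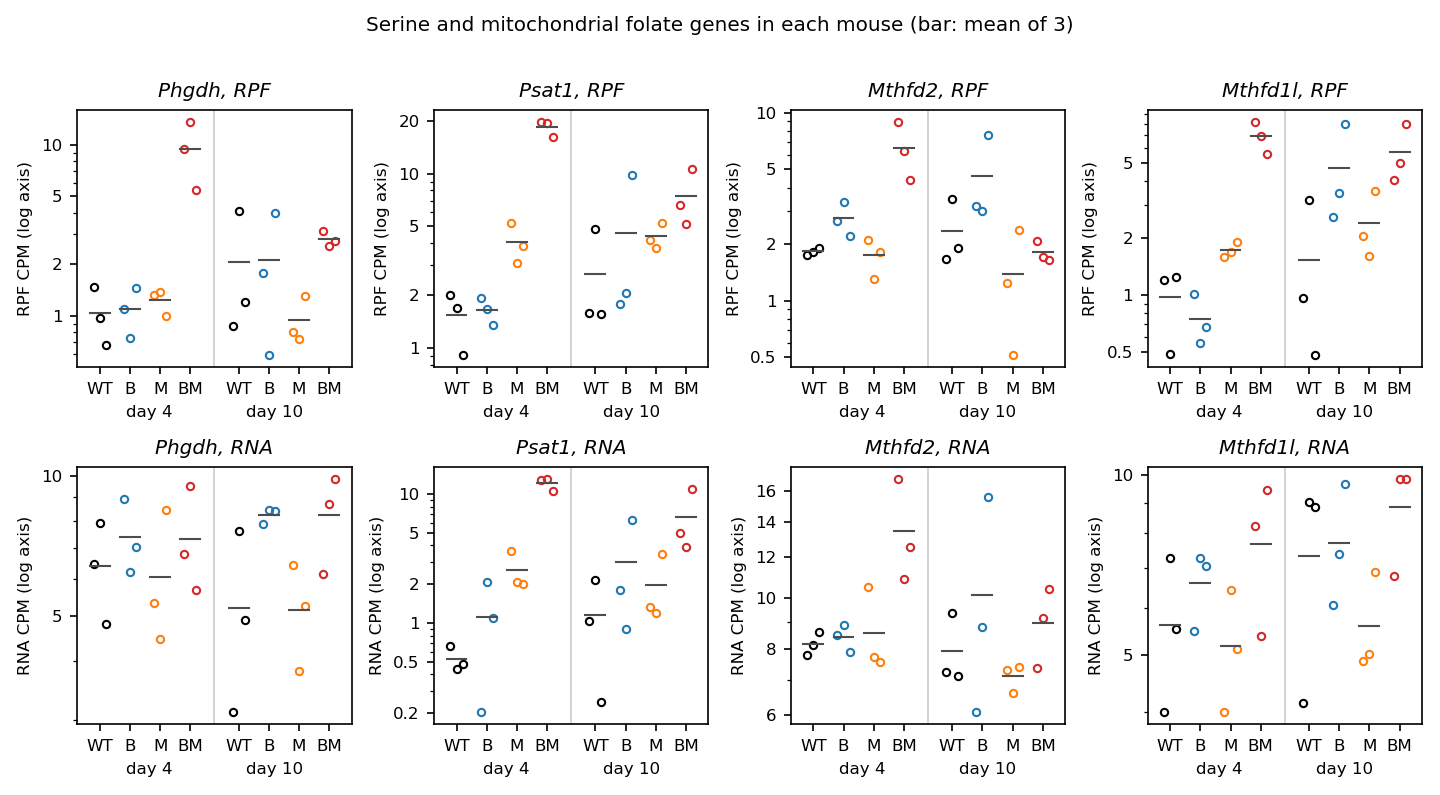
RPF (top) and RNA (bottom) level in CPM, on log axes, of Phgdh, Psat1, Mthfd2 and Mthfd1l in each of the 24 mice, by genotype and day, with each mouse a point and the mean of 3 a bar. For the RPFs of Phgdh and Psat1 the BM mice at day 4, at 5.43 to 13.7 and 16.3 to 19.9 CPM, lie above all other groups, and WT day 10 mouse 2 lies above the other WT mice.

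Of the 7 folate one-carbon genes, 3 were called higher in BM livers at day 4 (all genes 26.2%) and 1 lower (24.7%). Those that rose were the mitochondrial enzymes Mthfd2, a dehydrogenase and cyclohydrolase, Mthfd1l, which releases formate, and Shmt2. The cytosolic Aldh1l1 fell. Mthfd1l (chr10:3922870-4117081, plus strand) was at 1.20, 0.486 and 1.24 RPF CPM in WT, 1.58, 1.69 and 1.91 in M, and 8.25, 6.95 and 5.56 in BM livers at day 4. Each group lay above the one before, although the M change of 0.82 ± 0.34 did not pass (adjusted p = 0.108). The BM change was 2.81 ± 0.29 (edgeR adjusted p = 2.09e-05). At day 10 Mthfd1l was at 0.963, 3.17 and 0.481 CPM in WT and 4.06, 4.97 and 8.02 in BM livers, a change of 1.85 ± 0.57 (adjusted p = 0.0373) that lost its call without WT mouse 1 (1.57) or WT mouse 3 (1.45). Without WT mouse 2 it was 2.87 ± 0.49 (adjusted p = 0.0121). In B livers at day 10 it was at 2.59, 3.46 and 8.0 CPM, with a change of 1.58 ± 0.61 (adjusted p = 0.108) that was 2.61 (adjusted p = 0.0295) without WT mouse 2 and 0.93 (adjusted p = 0.249) without B mouse 3. Mthfd2 was at 1.75, 1.82 and 1.92 CPM in WT, 2.67, 3.36 and 2.21 in B, 2.11, 1.30 and 1.82 in M, and 8.99, 6.23 and 4.37 in BM livers at day 4. M overlapped WT, every B mouse lay above both and every BM mouse above B. The change against WT was 0.57 ± 0.25 in B (adjusted p = 0.215) and 1.86 ± 0.29 in BM livers (adjusted p = 3.84e-04). At day 10 the BM mice were at 2.09, 1.71 and 1.65 CPM, overlapping the WT mice at 1.66 to 3.48 (-0.38 ± 0.34, adjusted p = 0.419). Without WT mouse 2 that change was -0.01 (adjusted p = 0.991).

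Aldh1l1 (chr6:90463409-90577185, plus strand) was at 1986, 2012 and 2355 RPF CPM in WT, 2118, 2152 and 2429.5 in B, 2228, 2134 and 2419 in M, and 955, 1115 and 1037 in BM livers at day 4. The BM mice were below every other mouse and the other 3 groups overlapped, with a change of -1.01 ± 0.10 in BM against WT (edgeR adjusted p = 1.72e-05). At day 10 it was at 2407, 1986 and 2378 CPM in WT and 3108, 2822 and 2835 in BM livers, higher in every BM mouse, and the change of 0.36 ± 0.18 did not pass (adjusted p = 0.151; 0.32, adjusted p = 0.0914, without BM mouse 1). Shmt1, Shmt2 and Mthfd1, the serine hydroxymethyltransferases and the trifunctional cytosolic folate enzyme, were each called higher in M livers at day 4, by 0.36 ± 0.07, 0.34 ± 0.08 and 0.26 ± 0.07. In BM livers Shmt2 was higher by 0.27 ± 0.07 (adjusted p = 0.0135), and Shmt1 (-0.12) and Mthfd1 (0.12) did not pass. None of the 3 passed at day 10 in M or BM livers. In B livers at day 10 Shmt1 was called lower (-0.34 ± 0.12, adjusted p = 0.0881), and that call was lost without WT mouse 1 or 3 or any of the B mice (-0.30 to -0.42). It was at -0.08 under total-count scaling. Aldh1l2, the mitochondrial relative of Aldh1l1, had 0 to 24 RPF counts per library, was tested only against WT in BM livers at day 4 and between the days in BM livers, and was called in neither.

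Glycine cleavage is a mitochondrial complex that splits glycine and passes its carbon to folate, and its decarboxylase Gldc moved with both alleles in opposite directions. Gldc (chr19:30071975-30152871, minus strand) was at 267, 291 and 272 RPF CPM in WT, 243, 162 and 187 in B, 385, 375 and 385 in M, and 166, 186 and 159 in BM livers at day 4. At day 10 it was at 282, 302 and 262 in WT, 76.2, 98.0 and 79.3 in B, 456, 458 and 336 in M, and 136, 202 and 210.2 CPM in BM livers. On both days every B and BM mouse lay below every WT mouse and every M mouse above. The changes against WT at day 10 were -1.75 ± 0.13 in B (edgeR adjusted p = 1.02e-04), 0.56 ± 0.14 in M (adjusted p = 0.0420) and -0.64 ± 0.20 in BM livers (adjusted p = 0.0391). At day 4 they were -0.50 ± 0.13, 0.50 ± 0.07 and -0.67 ± 0.08, all called. The RNA of Gldc was called in the same direction in all 6 comparisons with WT, from -1.72 ± 0.13 in B livers at day 10 to 0.64 ± 0.09 in M livers at day 4. The B call at day 4 was lost without any of the 3 WT mice or without B mouse 2 or 3, with values of -0.37 to -0.53. The M call at day 10 was lost without WT mouse 1 or 3 or M mouse 1 or 2 (0.49 to 0.57). The BM call at day 10 was lost without WT mouse 1 (-0.64) or WT mouse 2 (-0.61) and under total-count scaling (-0.27). Gcsh, the lipoate carrier of the complex, was at 93.5, 105 and 113 CPM in WT, 77.9, 77.4 and 78.4 in B, and 60.8, 66.7 and 56.8 in BM livers at day 10, without overlap. It was lower by 0.43 in B (log2 change -0.43 ± 0.11, adjusted p = 0.0225) and by 0.77 in BM livers (-0.77 ± 0.15, adjusted p = 0.00610). Amt, the aminomethyltransferase, fell in BM livers at day 4 (-0.38 ± 0.10, adjusted p = 0.00890), a direction that turned to 0.05 under total-count scaling. At day 10 BM mouse 1 was at 82.2 CPM and mice 2 and 3 at 39.1 and 41.0, and without mouse 1 the change of -0.51 ± 0.28 became -0.94 ± 0.12 (adjusted p = 4.59e-05).

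The purine ring genes rose together in M livers. All 8 were called higher at day 4 (all genes 18.5%), by 0.23 to 0.87 with a median of 0.66. At day 10, 7 of 8 were called higher (all genes 10.6%), with Paics at -0.01 ± 0.10 the exception. Atic, which closes the ring (chr1:71596294-71619241, plus strand), was at 52.0, 49.3 and 56.7 RPF CPM in WT, 51.7, 53.4 and 55.3 in B, 94.6, 90.4 and 96.5 in M, and 119, 107 and 113 in BM livers at day 4. B overlapped WT, M lay above both and BM above M. The log2 change was 0.87 ± 0.08 in M and 1.12 ± 0.08 in BM livers at day 4, and 1.08 ± 0.11 and 1.15 ± 0.14 at day 10 (largest edgeR adjusted p = 0.00207). Pfas, the fourth step, reached 1.38 ± 0.13 and Prps2, which makes the activated ribose, 1.01 ± 0.12 in BM livers at day 4, with Adsl, Gart and Ppat at 0.85, 0.77 and 0.65. Prps1 (0.08) and Paics (0.06) did not pass there.

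Ppat, the amidotransferase that commits ribose to purine synthesis, had its largest change in BM livers at day 10. It was at 32.7, 38.9 and 29.1 RPF CPM in WT, 47.3, 41.3 and 36.2 in B, 65.7, 66.6 and 48.9 in M, and 65.4, 198 and 259 in BM livers. BM mouse 1 lay within the M range and mice 2 and 3 far above it. The change against WT was 2.36 ± 0.45 (edgeR adjusted p = 0.00635), and BM exceeded M by 1.51 ± 0.46 (adjusted p = 0.0549) although the mice overlapped. That call was lost without any of the M mice or without BM mouse 2 or 3, with values of 1.10 to 1.60. Paics, its overlapping neighbour and a later step, was at 303, 284 and 283 CPM in WT and 318, 495 and 679 in BM livers at day 10, again with mouse 1 lowest, and the change was 0.76 ± 0.27 (adjusted p = 0.0550). It was not called without any of the WT mice or without BM mouse 2 or 3 (0.47 to 0.79). Adsl was tighter, at 42.0, 39.9 and 31.5 CPM in WT and 97.4, 102 and 99.7 in BM livers, a change of 1.38 ± 0.16 (adjusted p = 9.35e-04).

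In the branch to guanine nucleotides, Impdh2, the main IMP dehydrogenase, was at 31.2, 26.2 and 42.6 RPF CPM in WT, 35.5, 37.8 and 30 in B, 61.4, 53.2 and 63.9 in M, and 90.9, 91.1 and 77.4 in BM livers at day 4. B overlapped WT, and M and BM lay above them in that order. The change was 0.87 ± 0.16 in M (edgeR adjusted p = 0.00306) and 1.40 ± 0.15 in BM livers (adjusted p = 2.69e-05). At day 10 it was at 49.4, 48.1 and 44.4 CPM in WT, 56.2, 48.9 and 103 in M, and 110.0, 49.9 and 54.1 in BM livers. M mouse 3 and BM mouse 1 were about as high as each other and the other mice were near the WT mice, and neither change passed (0.55 ± 0.25 and 0.58 ± 0.29). The M change was 0.16 (adjusted p = 0.365) without M mouse 3 and 0.74 and called without M mouse 2. The BM change was 0.13 (adjusted p = 0.370) without BM mouse 1 and 0.78 and called without BM mouse 2. The RNA of Impdh2 was higher at day 10 in both, by 1.01 ± 0.11 in M and 0.77 ± 0.14 in BM livers, without that spread (91.4 to 105 and 76.9 to 93.3 CPM against 46.4 to 54.3 in WT). Impdh1, the less abundant form, was called higher in M livers on both days, by 0.83 ± 0.23 and 0.96 ± 0.23, and in BM livers at day 4, by 0.98 ± 0.21. The day 10 call was lost without M mouse 2 (0.80). Gmps, which makes GMP, was called in BM livers at day 4 against M (0.22 ± 0.07) and at day 10 against WT (0.60 ± 0.20, adjusted p = 0.0498), and in no other of these comparisons. The first call was lost without M mouse 1 or 2 (0.20). The second was lost without any of the WT mice or BM mouse 2 or 3 (0.49 to 0.60).

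All 4 pyrimidine genes were called higher in M and BM livers at day 4, by 0.78 to 0.86 in M (all genes 18.5% higher) and 0.70 to 1.95 in BM livers (26.2%). Ctps, CTP synthase (named Ctps1 in the files; chr4:120395395-120471131, minus strand), was at 6.62, 7.17 and 7.12 RPF CPM in WT, 7.08, 8.40 and 6.04 in B, 9.92, 11.2 and 14.0 in M, and 31.7, 23.3 and 24.7 in BM livers at day 4. At day 10 it was at 6.48, 5.01 and 5.05 in WT, 8.67, 12.7 and 10.3 in B, 22.2, 16.6 and 26.6 in M, and 38.5, 49.0 and 64.6 CPM in BM livers. At day 10 the 4 genotypes followed in this order without overlap, whereas at day 4 B overlapped WT. The log2 changes at day 10 were 0.91 ± 0.20, 1.97 ± 0.20 and 3.18 ± 0.25 in B, M and BM livers, the last with an edgeR adjusted p of 1.91e-04, and that was the largest RPF change against WT of any member at day 10. Cad, the multifunctional enzyme of the first 3 steps, was at 40.9, 39.8 and 45.0 CPM in WT, 24.6, 25.7 and 35.3 in B, 71.2, 69.3 and 82.3 in M, and 145, 111 and 112 in BM livers at day 4. B lay below WT, M above and BM above M, with changes of -0.57 ± 0.13 (adjusted p = 0.0252), 0.86 ± 0.09 (adjusted p = 2.23e-04) and 1.57 ± 0.11 (adjusted p = 1.45e-06). The B call was lost without WT mouse 3 (-0.52). At day 10 Cad was at 41.5, 82.0 and 43.5 CPM in WT, 89.6, 81.4 and 75.6 in M, and 50.2, 31.4 and 28.5 in BM livers. BM lay below M (-1.19 ± 0.23, adjusted p = 0.0140), and M against WT was 0.56 ± 0.24 (adjusted p = 0.167), or 0.96 (adjusted p = 0.0103) without WT mouse 2. BM against WT was -0.61 ± 0.32 (adjusted p = 0.164), and it was -0.90 and called lower without BM mouse 1 (adjusted p = 0.0109) but -0.25 without WT mouse 2 (adjusted p = 0.518). Umps, the last step to UMP, was higher in M livers on both days (0.85 ± 0.09 and 0.83 ± 0.11) and in BM livers at day 4 only (0.70 ± 0.09), with 0.15 ± 0.15 at day 10. Dhodh, the mitochondrial step, was higher in M and BM livers on both days, by 0.81 to 1.34.

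Aprt, the adenine salvage enzyme (chr8:123301184-123303648, minus strand), was the one member called higher in all 6 comparisons with WT, in RPFs and in RNA. Aprt was at 23.2, 23.3 and 28.6 RPF CPM in WT, 34.4, 30.4 and 41.4 in B, 40.9, 41.9 and 36.1 in M, and 67.2, 56.8 and 62.1 in BM livers at day 4. At day 10 it was at 29.4, 20.3 and 22.5 in WT, 71.4, 71.0 and 58.1 in B, 40.5, 37.7 and 51.9 in M, and 125, 167 and 168 CPM in BM livers. No mouse of another genotype fell into the WT range, and the B mice lay below or among the M mice at day 4 and above them at day 10. The RPF changes were 0.49 ± 0.13, 0.70 ± 0.11 and 1.33 ± 0.11 in B, M and BM livers at day 4 and 1.45 ± 0.15, 0.84 ± 0.17 and 2.66 ± 0.21 at day 10 (edgeR adjusted p from 3.69e-06 to 0.0476). The B call at day 4 was lost without WT mouse 1 (0.43), WT mouse 2 (0.44) or B mouse 3 (0.36). Hprt, which salvages hypoxanthine and guanine, rose less, by 0.20 and 0.36 in M and BM livers at day 4 and 0.39 and 0.87 at day 10. Uck2, a uridine and cytidine kinase, rose by 0.73 and 1.03 at day 4 and 1.10 and 1.44 at day 10. The kinases Nme1 and Nme2, with the shared windows given above, were called higher in M and BM livers at day 4 (0.31 to 0.76). Cmpk1, the UMP and CMP kinase, was called lower in BM livers on both days (-0.22 ± 0.09 and -0.37 ± 0.15), and both values turned positive, to 0.21 and 0.01, under total-count scaling. Without single mice these calls were lost in 4 of 6 fits at day 4 (-0.14 to -0.23) and 5 of 6 at day 10 (-0.32 to -0.46).

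**Figure D3:**
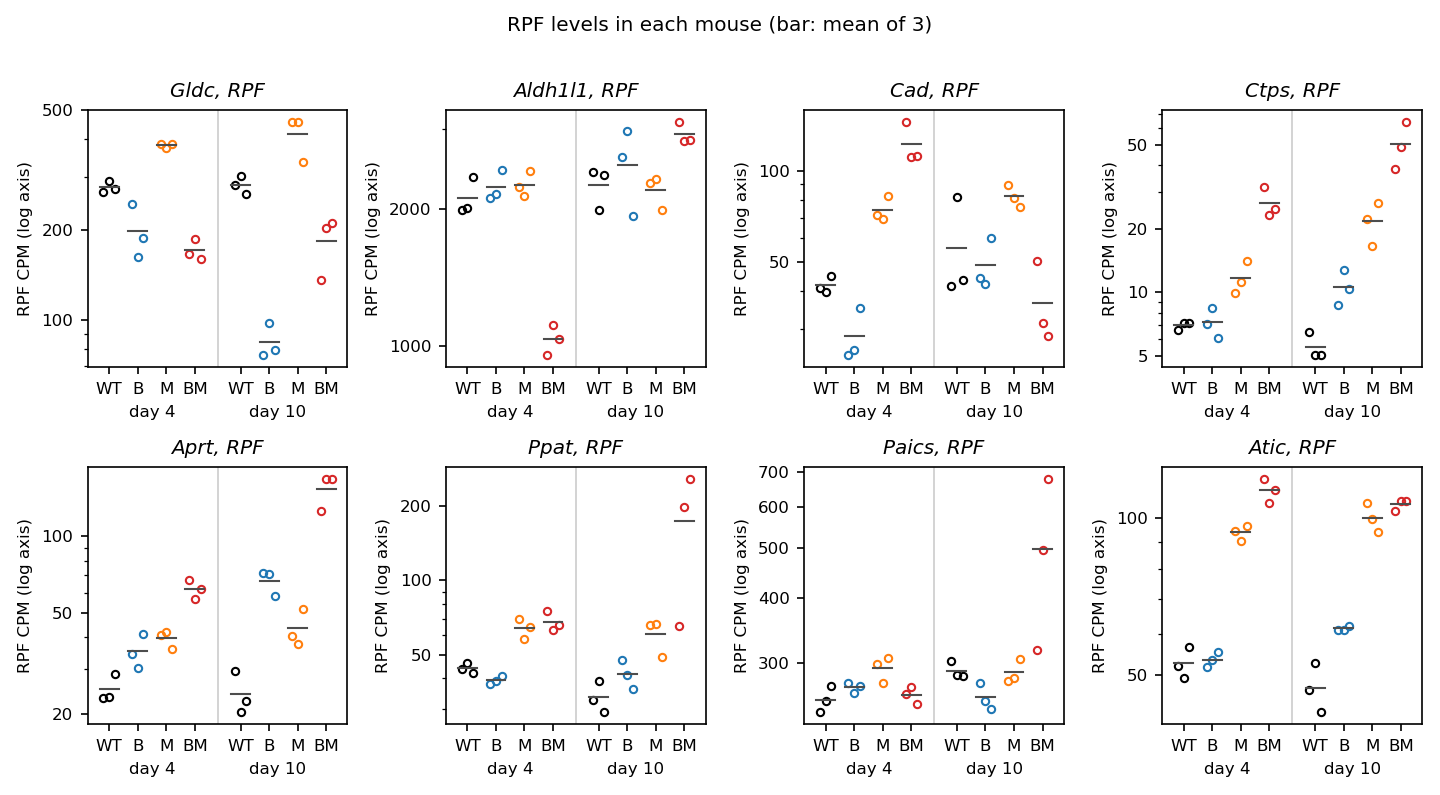
RPF level in CPM on a log axis for Gldc, Aldh1l1, Cad, Ctps, Aprt, Ppat, Paics and Atic in each of the 24 mice, by genotype and day, with each mouse a point and the mean of 3 a bar. Gldc in B livers at day 10 lies at 76.2 to 98.0 CPM against 262 to 302 in WT, Aprt and Ctps are highest in BM livers at day 10, and Ppat and Paics show BM day 10 mouse 1 below mice 2 and 3.

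In M and BM livers RNA and footprints went the same way for every member called in both against WT. At day 4, 19 of 33 members were called higher in M livers (13.5% of all genes) and none lower (10.3%), 17 higher (21.3%) and 3 lower (20.6%) in BM livers, and 1 of 32 higher (4.41%) and 1 lower (3.73%) in B livers. BM against M had 8 of 33 higher (14.6%) and 5 lower (15.9%). At day 10, 14 of 32 were higher in M livers (8.53%) and none lower (7.12%), 15 of 33 higher (22.9%) and 5 lower (22.8%) in BM livers, and 2 of 32 higher (8.14%) and 1 lower (7.48%) in B livers, with 8 of 33 higher (16.3%) and 6 lower (16.6%) in BM against M. Of the members called in RPFs, 18 of 24 in M and 20 of 26 in BM livers at day 4, and 13 of 16 and 16 of 19 at day 10, were called the same way in RNA, and 0 were called the opposite way. The share over all genes called in RPFs was not counted, so this cannot be called particular to the members. Those called in both included Psat1, whose RNA was at 0.669, 0.440 and 0.481 CPM in WT and 12.8, 13.2 and 10.5 in BM livers at day 4, a change of 4.46 ± 0.32 (edgeR adjusted p = 1.97e-07) from 1 to 81 counts per library. Aldh1l1 RNA fell by 1.02 (-1.02 ± 0.11, adjusted p = 4.89e-06) in BM livers at day 4. Aprt RNA rose by 2.49 ± 0.15 in BM livers at day 10 (adjusted p = 1.81e-05). Under total-count scaling, which moved the median of all genes by 0.55 in BM livers at day 4, 29 were higher (67.3% of all genes) and 1 lower (5.48%) there, and 23 higher (47.6%) and 2 lower (11.3%) in BM livers at day 10.

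With the RPF and RNA libraries of a mouse treated as independent, TE was called for 3 of 33 members in BM livers at day 4, all higher (all genes 1.71% higher, 0.522% lower). These were Phgdh (2.96 ± 0.54, edgeR adjusted p = 0.00764), Mthfd1l (2.34 ± 0.44, adjusted p = 0.00969) and Impdh1 (1.38 ± 0.32, adjusted p = 0.0337). The log2 ratio of RPF to RNA CPM of Phgdh was -2.14, -3.03 and -2.82 in WT, -2.02, -1.70 and -3.08 in M, and 0.47, 0.52 and -0.07 in BM livers, and its RNA was at 6.47, 7.92 and 4.81 CPM in WT and 6.79, 9.53 and 5.71 in BM livers. The RNA of the groups overlapped (0.19 ± 0.25, adjusted p = 0.597) while the ratios did not. For Mthfd1l the ratio was -1.75, -3.90 and -2.15 in WT and 0.01, 0.37 and -0.77 in BM livers, with an RNA change of 0.45 ± 0.27 (adjusted p = 0.221). For Impdh1 it was -2.11, -2.80 and -2.09 in WT and -0.74, -0.83 and -1.37 in BM livers, with an RNA change of -0.41 ± 0.22 (adjusted p = 0.164). The Mthfd1l and Impdh1 calls were lost without WT mouse 2 (1.82, adjusted p = 0.116, and 1.14, adjusted p = 0.233), and that of Impdh1 also when any of WT mouse 3 (1.54) or the first or second BM mouse (1.26 and 1.32) was left out. Where at least 10 counts were required in every library, Phgdh and Mthfd1l could not be tested. The serine enzyme Psat1, with the largest RPF change, had a lower ratio in BM than in WT livers, at 0.64, 0.56 and 0.64 against 1.60, 1.95 and 0.91, and was not called (-0.92 ± 0.50, adjusted p = 0.604).

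Because each RPF library has an RNA library from the same mouse, TE was also fitted with the mouse as a block. Then 7 members were called higher in BM livers at day 4 (all genes 3.77% higher, 2.39% lower), the 3 above and Mthfd2 (1.12 ± 0.29, edgeR adjusted p = 0.0220), Atic (0.41 ± 0.12, adjusted p = 0.0468), Cad (0.69 ± 0.16, adjusted p = 0.00785) and Ctps (0.85 ± 0.20, adjusted p = 0.0108). The pairing also added Impdh1 in M livers at day 4 (1.15 ± 0.28, adjusted p = 0.0233), where 1.75% of all genes were higher and 0.903% lower. It added Mthfd1l in B livers at day 10 (1.44 ± 0.41, adjusted p = 0.0728), where 1.32% were higher and 1.28% lower, and Ppat (0.62 ± 0.18, adjusted p = 0.0973) and Ctps (1.12 ± 0.20, adjusted p = 0.0218) in BM livers at day 10, where 2.38% were higher and 2.83% lower. Without the block edgeR called 0 members in the other TE comparisons. In M livers at day 4 (0.884% of all genes higher, 0.0865% lower) 4 of 33 members and 758 of 10405 genes had an unadjusted p under 0.05, and DESeq2 called 0 members. In B livers at day 4 (0.0293% and 0.0195%) 0 of 32 members and 290 of 10237 genes had such a p, and DESeq2 called 0 members. In B livers at day 10 (0.0282% higher and 0.0282% lower) it was 1 of 32 members and 558 of 10632 genes. In M livers at day 10 (0% and 0%) it was 2 of 32 members. In BM livers at day 10 (0.115% and 0.144%) it was 3 of 33 members and 1042 of 10431 genes. DESeq2 called 0 members in each of these 3. In M livers at day 10 edgeR called no gene at all, with 337 of 10453 genes at an unadjusted p under 0.05, and DESeq2 called 2 genes higher and 1 lower. Without BM day 10 mouse 1, 5 members were called in BM livers at day 10, where 10.4% of all genes were higher and 11.1% lower: Shmt1 (0.81), Gldc (0.48), Ppat (0.79), Ctps (1.18) and, lower, Impdh2 (-0.58).

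**Figure D4:**
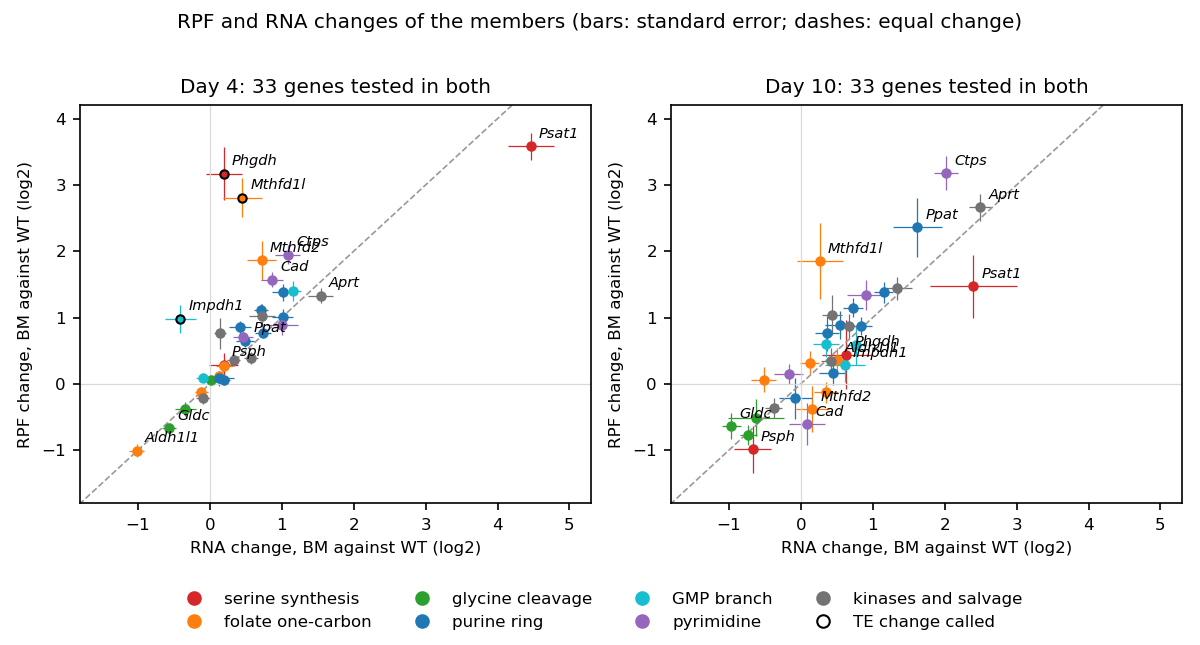
The log2 change in RPFs (vertical) against that in RNA (horizontal) for the 33 members tested in both, in BM against WT livers at days 4 and 10, with SE bars, colours for the roles, dashes for equal change and a black rim where TE was called. The TE calls shown are from the fit without the mouse as a block. At day 4 Phgdh, Mthfd1l and Impdh1 lie above the line of equal change, and Psat1 lies far to the upper right at 4.46 in RNA and 3.58 in RPFs.

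Whether a genotype's effect differed between the days was tested as an interaction. The effect of M on RPFs differed for 1 of 33 members (0.633% of all genes more positive at day 10 and 0.546% more negative): that of Ctps was larger at day 10 by 1.20 ± 0.27 (edgeR adjusted p = 0.0769), a call lost without 8 of the 12 mice in turn, at values of 1.10 to 1.24. The effect of BM differed for 16 of 34, with 8 more positive (17.2%) and 8 more negative (18.6%) at day 10, near the background. The 3 serine enzymes were all more negative, Phgdh by 2.72 (-2.72 ± 0.74, adjusted p = 0.0182), Psat1 by 2.11 (-2.11 ± 0.59, adjusted p = 0.0209) and Psph by 1.28 (-1.28 ± 0.41, adjusted p = 0.0380), as were Mthfd2 (-2.22 ± 0.47, adjusted p = 0.00499) and Cad (-2.17 ± 0.37, adjusted p = 0.00157). Without WT day 10 mouse 2 the value of Phgdh was -1.72 (adjusted p = 0.0786), that of Psat1 -1.36 (adjusted p = 0.0759) and that of Psph -0.81 (adjusted p = 0.0888), while Mthfd2 was at -1.82 and Cad at -1.78. On the other side stood Ppat (1.72 ± 0.49), Aldh1l1 (1.38 ± 0.19, adjusted p = 4.04e-04), Aprt (1.34 ± 0.23) and Ctps (1.23 ± 0.28). For Aldh1l1 the BM change went from -1.01 at day 4 to 0.36 at day 10. Total-count scaling gave 5 more positive (14.4% of all genes) and 9 more negative (18.6%), and leaving out BM day 10 mouse 1 gave 11 (25.8%) and 11 (31.5%).

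In RNA the effect of M differed between the days for 0 of 33 members by edgeR and 0 by DESeq2 (all genes 0.467% more positive and 0.735% more negative). An unadjusted p under 0.05 was found for 2 members and for 1167 of 11564 genes. The effect of BM on RNA differed for 15 of 33, with 7 more positive (13.4%) and 8 more negative (16.6%), led by Psat1 (-2.07 ± 0.85, adjusted p = 0.0982) and Aldh1l1 (1.52 ± 0.19, edgeR adjusted p = 9.27e-05). The Psat1 value was -1.24 (adjusted p = 0.412) without WT day 10 mouse 2. Phgdh RNA was not among them (0.43 ± 0.45, adjusted p = 0.521). The effect of BM on TE differed for 0 members by edgeR (0.0638% of all genes more positive and 0.246% more negative) and for 1 by DESeq2. An unadjusted p under 0.05 was found for 5 of 33 members and for 796 of 10980 genes. Without BM day 10 mouse 1, 8 members were called, 3 more positive (5.34% of all genes) and 5 more negative (7.81%): Shmt1 (0.84), Paics (0.65) and Gldc (0.61), and Phgdh (-3.40), Mthfd2 (-1.89), Impdh1 (-1.74), Cad (-1.70) and Impdh2 (-0.78). With all mice and the mouse as a block 3 were called (all genes 0.656% more positive and 1.21% more negative), Phgdh (-3.08 ± 0.53, adjusted p = 0.00857), Impdh1 (-1.68 ± 0.42, adjusted p = 0.0675) and Cad (-1.40 ± 0.31, adjusted p = 0.0384). The Kupffer cell and macrophage markers moved with the day as well, with 9 of 10 called more positive in the RPFs of BM livers at day 10 (all genes 17.2%). The part of cell composition in these differences was not tested.

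**Figure D5:**
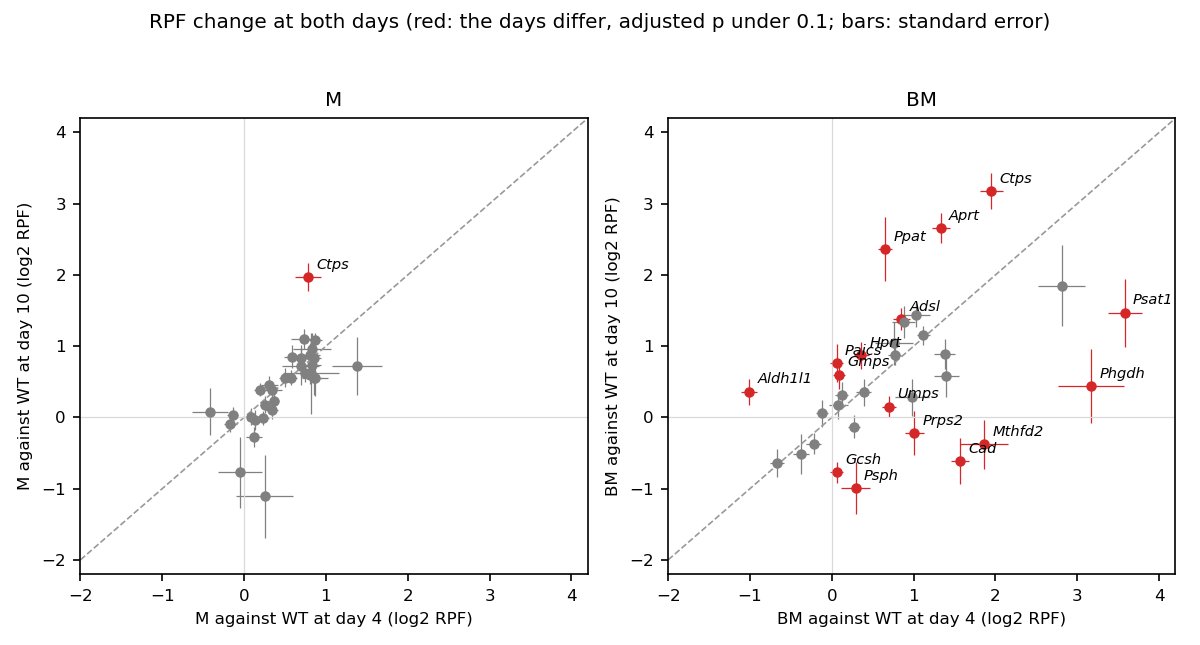
The log2 RPF change against WT at day 10 (vertical) against that at day 4 (horizontal) for each member, in M and in BM livers, with SE bars, dashes for equal change and members in red where the days differ. In M livers Ctps alone is red, while in BM livers 16 members are, with Phgdh, Psat1, Mthfd2 and Cad below the line of equal change and Ppat, Aldh1l1, Ctps and Aprt above it.

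Among 32 tested genes of the folate and methionine cycles and related enzymes outside the set, 5 rose and 16 fell in the RPFs of BM livers at day 4, where 26.2% of all genes were higher and 24.7% lower. The folate carrier Slc19a1 was at 1.38, 0.972 and 1.70 CPM in WT and 4.77, 5.44 and 5.63 in BM livers (1.97 ± 0.24). Bhmt, which remethylates homocysteine from betaine, was at 3989, 4502 and 4865 in WT and 1406, 1157 and 1326 in BM livers (-1.76 ± 0.11). Mtrr (1.22) and Mat2a, which makes S-adenosylmethionine (1.21), also rose. Nnmt, which methylates nicotinamide (-3.23), and the serine dehydratase Sds (-2.01) fell. Of 17 deoxynucleotide genes 9 rose and 4 fell. Rrm2, the small subunit of ribonucleotide reductase, went from 6.81, 8.99 and 7.58 to 168, 80.9 and 105 CPM (3.95 ± 0.26, edgeR adjusted p = 8.10e-07) and Dut rose by 2.45 ± 0.20. Dctd was listed at 0 in all 3 WT mice and at 0.860 to 1.16 CPM in BM mice. Cmpk2 (-1.09), Nme6 (-0.64) and Samhd1 (-0.34), a deoxynucleotide hydrolase, fell.

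Of 32 other genes of purine and pyrimidine salvage and breakdown, 8 rose and 12 fell in BM livers at day 4, against 26.2% of all genes higher and 24.7% lower, so that the share that rose was near the background. Uox, the urate oxidase that ends purine breakdown in mice, went from 1395, 1489 and 1401 to 527, 567 and 522 RPF CPM (-1.38 ± 0.08, edgeR adjusted p = 4.06e-07). Tymp (-1.43) and Upp2 (-1.01), phosphorylases of pyrimidine nucleosides, also fell, and Ak1 (1.41), Nt5c2 (0.80) and Nt5c3 (0.71) rose. Of 12 genes of the pentose phosphate pathway and related proteins 3 rose, again near the background of 26.2%. These were the transketolase Tkt by 0.52, Pgd by 0.34 and the related Prpsap1 by 0.60. Another 5 fell, led by H6pd (-1.02), G6pdx (-0.53) and Shpk (-0.40), against 24.7% of all genes lower. In M livers at day 4 the counts for the 4 lists in this order were 12 higher and 8 lower of 32, 8 and 2 of 16, 8 and 2 of 31, and 5 and 3 of 12, where 18.5% of all genes were higher and 14.7% lower. At day 10 in BM livers 13 of 32 folate and methionine genes were higher and 5 lower, 4 of 17 deoxynucleotide genes were higher and 4 lower, 7 of 31 salvage and breakdown genes were higher and 9 lower, and 1 of 12 pentose phosphate genes was higher and 6 lower, where 24.5% of all genes were higher and 22.3% lower.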

How the data were processed

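RPF and cytoplasmic RNA libraries of 24 livers were analysed from the authors' deposited tables. Per the methods, the authors trimmed reads with Cutadapt 1.18, removed duplicates by molecular identifiers, aligned RPFs to protein-coding transcripts of GENCODE vM27 (GRCm39) and counted them per transcript without the first 20 and last 10 codons; the deposited values are raw counts. RNA was aligned with Bowtie2 2.3.5.1 and quantified with RSEM 1.3.3, and the deposited expected counts were summed per gene and rounded. Deposited TPM values were used only for RNA levels in WT livers. RPF coding counts were joined to genes by transcript.

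The 34 members, the other lists and the tests were chosen with earlier results of these data known. Within each role, the members with the largest RPF change among those called are given per mouse, and of each other list up to 3 per direction in BM livers at day 4. RPF and RNA counts were tested with edgeR 4.0.16 (R 4.3.3; quasi-likelihood, TMM scaling, filterByExpr with a minimum count of 10) on the mice compared, and TE as the difference in group effect between the library types. Standard errors are the log2 change divided by the root of F. Groups come from the labels. Mice are separate animals, so the RPF and RNA p-values measure the spread between mice. The main TE fit treats the RPF and RNA libraries of a mouse as independent, so its p-values ignore their pairing. The TE fit with the mouse as a block keeps the pairing. RPF and RNA of the same mouse deviated together (correlation 0.306 to 0.674 over 24 mice), whereas mice with the same number in other groups did not (median -0.029 for RPFs and 0.031 for RNA). Alternatives were DESeq2 1.42.0, other scaling and filters, 1 fit of all 24 mice, a block and leaving out each mouse. Total-count scaling was chosen after seeing the data. The fits were tested on simulated data. Promoters are from RefSeq and the shared windows from GENCODE vM39.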

Additional observations from a re-analysis of the deposited data

Results flagged for a closer look

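The results listed here are members whose genotype effect differed between the days by the interaction test at an adjusted p under 0.1 in edgeR. In M livers Ctps RPFs differed by 1.20 (log2, day 10 minus day 4).

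In the RPFs of BM livers the effect was more negative at day 10 for Phgdh (-2.72), Mthfd2 (-2.22), Cad (-2.17), Psat1 (-2.11), Psph (-1.28), Prps2 (-1.22), Gcsh (-0.82) and Umps (-0.54). It was more positive for Ppat (1.72), Aldh1l1 (1.38), Aprt (1.34), Ctps (1.23), Paics (0.72), Adsl (0.54), Gmps (0.52) and Hprt (0.51). In the RNA of BM livers it was more negative for Psat1 (-2.07), Prps2 (-1.09), Psph (-0.87), Cad (-0.78), Gcsh (-0.74), Umps (-0.63), Gldc (-0.40) and Impdh2 (-0.40), and more positive for Aldh1l1 (1.52), Ppat (1.12), Impdh1 (1.02), Aprt (0.95), Ctps (0.94), Adsl (0.73) and Hprt (0.34). Impdh1, Impdh2 and Gldc were called in RNA and not in RPFs. Without WT day 10 mouse 2 the RPF values were -1.72 for Phgdh, -1.82 for Mthfd2, -1.78 for Cad, -1.36 for Psat1 and -0.81 for Psph, all still called, and the RNA values -1.24 for Psat1 and -0.43 for Cad, neither called. Without BM day 10 mouse 3 the RPF value of Paics was 0.41 and not called. Groups of 3 mice were too small for the outlier test.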

How the results depend on the processing

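Depth limits Phgdh, Psat1, Mthfd1l and Mthfd2, which had as few as 6, 8, 4 and 7 RPF counts in a library. Called members by alternative were as follows. Most counts in this section lack the share of all genes called in the same fit, and that share moves between fits. For TE in BM livers at day 10 it went from 0.115% higher and 0.144% lower to 10.4% and 11.1% without BM mouse 1. Counts without such a share describe the fits and do not set the members against all genes. With all 24 mice in 1 fit RPF counts were 0 in B at day 4, 22 in BM against M at day 10 and 0 for the M effect between days, RNA counts 7 in BM against M at day 4 and 6 in B at day 10, and TE counts 3 in BM at day 10 and 1 for the BM effect. Total-count scaling, chosen after seeing the data, gave 15 in B RPFs at day 10 and, in RNA, 20 in BM against M at day 4 and 12 in B at day 10. DESeq2 gave 7 for RNA in BM against M at day 4, and for TE 5 in BM at day 4 and 1 for the BM effect. RNA of the RPF transcript alone gave 7 for the BM effect. Requiring 10 counts in every library gave 1 for TE in BM at day 4.

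The replicate block by mouse gave TE counts of 1 in M at day 4, 7 in BM at day 4, 1 in B at day 10, 2 in BM at day 10 and 3 for the BM effect. A replicate block by mouse number in RPFs or RNA, where the numbers do not pair the mice, moved no count of calls by over 1.5 times.

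Leaving out 1 mouse at a time, RPF counts ranged from 1 to 5 in B at day 4, 4 to 10 in B at day 10, 12 to 26 in BM at day 10, 8 to 24 in BM against M at day 10 and 0 to 1 for the M effect. RNA counts ranged from 1 to 2 in B at day 4, 7 to 11 in BM against M at day 4, 7 to 22 in BM against M at day 10 and 6 to 20 for the BM effect. TE counts ranged from 1 to 5 in BM at day 4, 0 to 1 in M at day 10 (Impdh2 without M mouse 3), 0 to 5 in BM at day 10 and 0 to 8 for the BM effect. The highest day 10 BM counts came without BM mouse 1. In that fit 33.4% of all genes were higher and 32.9% lower in the RPFs of BM against WT livers, against 24.5% and 22.3% with all mice. Calls that held in every such fit numbered 19 of 24 in M and 25 of 26 in BM RPFs at day 4, 11 of 16 and 11 of 19 at day 10, and 0 of 4 in B at day 4.

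Under total-count scaling these members changed sign: in RPFs Shmt1 (0.31), Amt (0.05) and Cmpk1 (0.21) in BM at day 4, Gcsh (0.17) and Paics (0.04) in BM against M at day 4 and Cmpk1 (0.01) in BM at day 10, and in RNA Gcsh (0.32) and Cmpk1 (0.22) in M at day 4, Shmt1 (0.43), Amt (0.21), Gmps (0.46) and Cmpk1 (0.45) in BM at day 4 and Cmpk1 (0.03) in BM at day 10. Splits of higher against lower calls moved under it to 20 and 4 for RPFs in BM against M at day 4 and 14 and 5 at day 10, and in RNA to 3 and 0 in B at day 4, 17 and 3 in BM against M at day 4, 11 and 1 in B at day 10, 15 and 3 in BM against M at day 10 and 5 and 11 for the BM effect. In the same fits the shares of all genes higher and lower were 38.9% and 9.35%, 23.8% and 11.5%, 14.5% and 2.07%, 33.6% and 9.28%, 19.7% and 3.77%, 26.7% and 10.1%, and 8.70% and 21.2%, in this order. DESeq2 gave splits of 5 and 3 in B RPFs at day 10 and 7 and 4 for the RNA BM effect (all genes 10.7% and 10.4%, and 11.8% and 14.5%). For called members no other alternative changed a sign, of the 270 calls among 887 tests of single members DESeq2 lost 29, and it added 9 among the 617 not called. The block lost 18 and added 19. The cause of these changes was not tested.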
